A study of Mus musculus with 62 samples.

Results

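The choroid plexus is the secretory tissue of the brain ventricles, and its transcripts can be carried into RNA of the neighbouring cerebellum. The present account follows 9 of them, Ttr, Folr1, Clic6, Kl, Aqp1, Slc4a5, Otx2, Cldn2 and Prlr, in every library of a cerebellum series. The members were given as a list of 9 named genes with no threshold on measured values, and all 9 of 9 were present among the 47643 gene symbols of the table. Each passed the filter for testing, a mean of at least 1 TPM (transcripts per 1000000 transcripts, a level scaled for gene length), as did 14399 symbols in all.

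RNA was sequenced from the cerebellum of female mice labelled as 2 months old. Mice had received melanoma cells that bring on wasting (cachectic cells, CAC), melanoma cells that do not (non-cachectic, NCAC) or a mock injection. Tissue was taken 2, 4, 6 and 8 weeks after injection, which gives 12 groups and 62 libraries, with 5 libraries in each of 11 groups and 7 in CAC at 8 weeks. The labels disagree on the strain, since the sample fields name C57BL6/J and the series text names NCI Ath/nude mice. No label says where in the cerebellum the tissue was cut, or whether the fourth ventricle was kept. The replicates are called biological but carry no animal name, so p-values measure the spread between these samples.

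A sheet of ciliated epithelial cells over leaky capillaries makes up the choroid plexus, and it secretes the cerebrospinal fluid. One lobe of it lies in the fourth ventricle, directly beneath the cerebellum. OTX2 is the transcription factor that keeps the epithelium in its identity. The other members of the list are products of that epithelium: TTR is a secreted carrier of thyroid hormone and retinol-binding protein, FOLR1 carries folate, KL (klotho) is a membrane and shed co-receptor for an FGF hormone, and PRLR is the prolactin receptor. AQP1 is a water channel, SLC4A5 a sodium bicarbonate cotransporter, CLDN2 a tight junction protein that forms cation and water pores, and CLIC6 a member of the chloride intracellular channel family.

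The members are spread over the genome. In the RefSeq annotation of GRCm38.p6, the same build as the mm10 named in the submitters' processing notes, Folr1 lies at chr7:101858331-101870788, Clic6 at chr16:92498147-92541241 and Kl at chr5:150952607-150993817. Aqp1 and Slc4a5 share a chromosome, at chr6:55336299-55348555 and chr6:83207580-83304945. Otx2 lies at chr14:48656781-48667644, Cldn2 at chrX:139800808-139811386 and Prlr at chr15:10177238-10349190.

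Because the members moved together, the 250 bases before their annotated starts were searched on both strands for TAATCC, the core letters bound by OTX2, and for TATAAA, the letters of the TATA box. The RefSeq promoter table (GRCm38.p6) held entries for 6 of the 9 members, with 11 starts among them. Cldn2, Otx2 and Kl are shown, the first for its motif near the start, the second as the regulator itself and the third for the group difference described further on. Capitals mark TATAAA, and the strand of each window is that of its gene (plus for Cldn2 and Kl, minus for Otx2).
Cldn2, chrX:139800558-139800807: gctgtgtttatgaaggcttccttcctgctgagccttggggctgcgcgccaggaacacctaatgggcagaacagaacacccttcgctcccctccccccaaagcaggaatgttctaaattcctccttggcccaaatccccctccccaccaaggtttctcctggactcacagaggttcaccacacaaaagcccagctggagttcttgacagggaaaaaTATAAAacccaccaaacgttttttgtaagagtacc
Otx2, chr14:48667645-48667894: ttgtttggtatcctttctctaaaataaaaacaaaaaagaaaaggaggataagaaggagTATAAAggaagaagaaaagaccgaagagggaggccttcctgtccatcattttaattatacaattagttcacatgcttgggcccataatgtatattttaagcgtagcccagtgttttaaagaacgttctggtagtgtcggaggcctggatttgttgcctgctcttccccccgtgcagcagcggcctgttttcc
Kl, chr5:150952357-150952606: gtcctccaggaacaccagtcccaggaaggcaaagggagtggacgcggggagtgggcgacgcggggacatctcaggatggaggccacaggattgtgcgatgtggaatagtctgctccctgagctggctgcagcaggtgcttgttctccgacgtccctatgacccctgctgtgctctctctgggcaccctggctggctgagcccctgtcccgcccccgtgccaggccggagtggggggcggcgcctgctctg

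In Cldn2 the letters begin 35 bases before the start. In the Otx2 window they begin 192 bases before it. A window of Slc4a5 holds them on the opposite strand, 127 bases before its start. TATAAA was thus in 3 of the 11 windows of members, and in 12.4% of all 32851 promoters of this length. TAATCC was in 1 of the 11, a further Otx2 window that overlaps an annotated Otx2 exon, and in 6.25% of all promoters. The Kl, Aqp1 and Prlr windows held neither. These are matches of letters and not evidence of binding.

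The first question was how high the members stood in each library. Transthyretin was among the most variable transcripts of the whole table. Ttr ran from 4.34 TPM in a library of NCAC at 2 weeks to 6863 TPM in CAC replicate 6 at 8 weeks, with a median of 3296 TPM over the 62 libraries. Its standard deviation within groups was 2.57 on the log2(TPM + 1) scale, the fifth highest of the 14399 symbols tested, whose median was 0.11. Folr1 ran from 0.204 to 39.5 TPM with a median of 16.2 TPM. Kl ran from 0.271 to 25.5 TPM (median 13.95) and Aqp1 from 0.178 to 16.9 TPM (median 9.26). These 3 had standard deviations within groups of 1.15, 1.01 and 0.96 on the log2 scale.

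The remaining transporters and the junction gene spanned a smaller range. Clic6 lay between 3.04 and 50.9 TPM (median 30.8), Slc4a5 between 1.77 and 19.1 TPM (median 11.1) and Cldn2 between 0.695 and 12.2 TPM (median 7.70). The receptor Prlr was the lowest member at 0.088 to 4.93 TPM (median 2.19), and 14 of its 62 values were under 1 TPM. Otx2, by contrast, never fell below 8.26 TPM and never exceeded 21.7 TPM. The highest Otx2 value was 2.63 times the lowest, compared with 194 times for Folr1. Together the 9 members took between 0.00225% and 0.701% of the total TPM of a library, with a median of 0.337%.

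In 6 libraries the choroid plexus program was near absent, here set as Folr1 under 1 TPM, a cut chosen after the values were seen. They were NCAC at 2 weeks replicates 1, 3 and 5, CAC at 2 weeks replicate 1, mock at 4 weeks replicate 3 and mock at 6 weeks replicate 4. All 3 treatments are among them, and the 17 libraries of 8 weeks held none. Ttr in these 6 was 4.34, 13.1, 14.6, 13.0, 13.9 and 39.2 TPM, in the order named. Folr1 in the same order was 0.377, 0.204, 0.294, 0.463, 0.250 and 0.338 TPM. Kl reached 0.770 TPM at most, Aqp1 0.367 TPM and Prlr 0.246 TPM. Otx2 nevertheless stood at 8.26 to 11.2 TPM, Clic6 at 3.04 to 5.53 TPM and Slc4a5 at 1.77 to 2.19 TPM, so that these genes kept a floor in libraries with almost no Folr1 or Kl.

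Just above the cut came CAC at 2 weeks replicate 5 with Folr1 at 1.55 TPM, mock at 2 weeks replicate 4 with 2.01 TPM and mock at 4 weeks replicate 1 with 3.93 TPM. Their Ttr was 490.2, 600.9 and 873.0 TPM. Here, too, the members were low together, with Kl at 1.99, 2.77 and 3.67 TPM. In bulk tissue, fewer choroid plexus cells and less of each RNA per cell cannot be told apart.

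**Figure D1:**
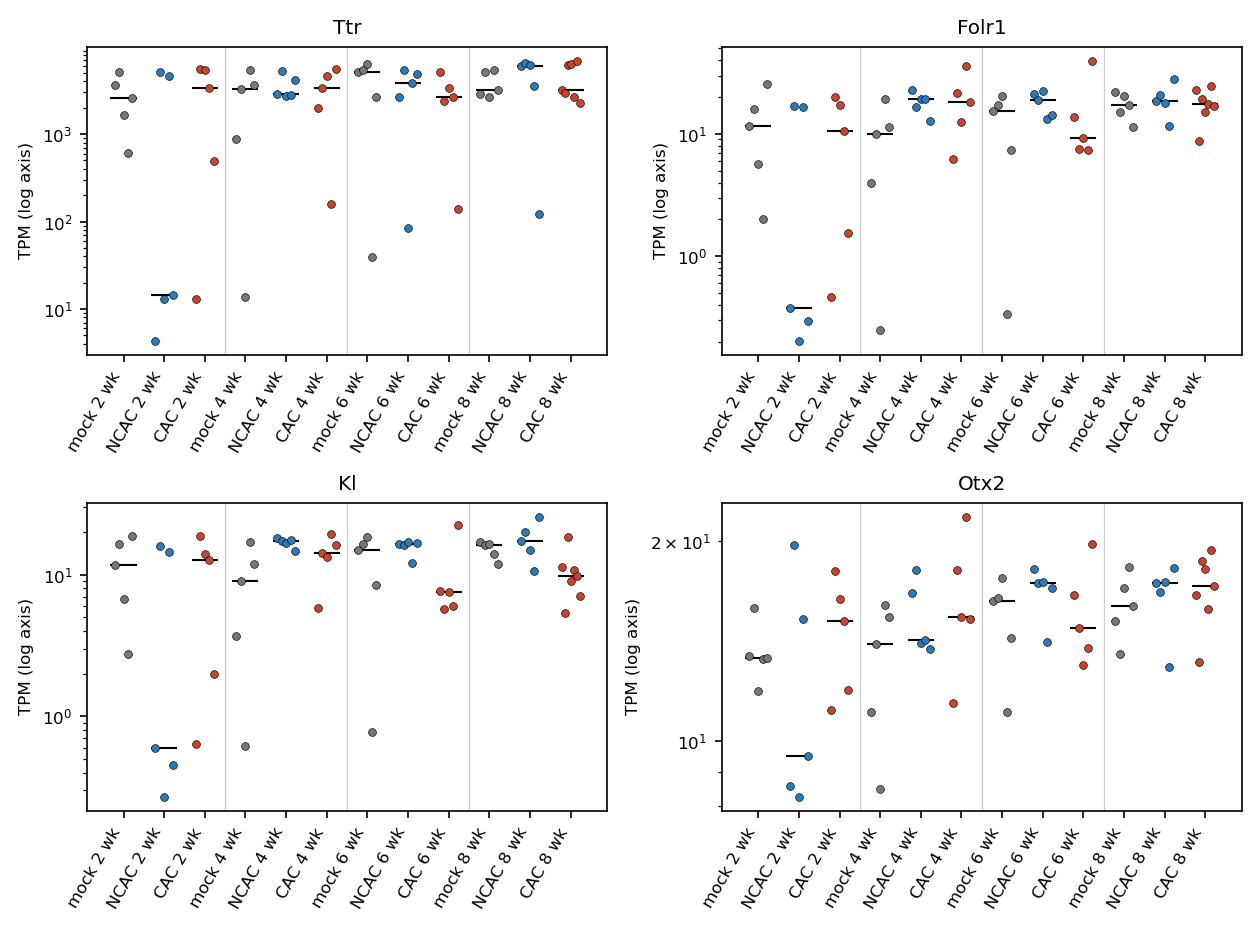
TPM of Ttr, Folr1, Kl and Otx2 in each library (points, log axes) by treatment and week, with the group median as a line; grey is mock, blue NCAC and red CAC. The 6 near-absent libraries sit under 1 TPM in the Folr1 and Kl panels, while Otx2 stays between 8.26 and 21.7 TPM throughout.

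The summed levels of marker lists of other cell types were set beside the members. Summed TPM of 14 markers of ciliated ependymal cells, which line the ventricles beside the choroid plexus, was 58.2 to 72.7 in the 6 near-absent libraries and 58.2 to 104.8 over all 62. Of those 14, 9 had a Pearson correlation (r) of at least 0.5 with the mean log2 level of the 9 members, Cfap126 the highest at 0.799. Foxj1, the ciliary regulator with the highest mean of that list at 15.6 TPM, had 0.65. The 14 meningeal markers summed to 85.1 to 180.8 TPM in the near-absent libraries and to 203.3 TPM at most. Dcn, the most abundant of them at a mean of 45.7 TPM, had an r of 0.43, and Pdgfra the highest at 0.50.

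Markers of cerebellar neurons spanned a narrow range across the libraries, with weak negative correlations with the members. The 7 Purkinje cell markers summed to 5583 to 6240 TPM in the near-absent libraries and to 4779 to 6273 TPM in all 62, led by Pcp4 at a mean of 1814 TPM with an r of -0.34. For the 7 granule cell markers the sums were 4488 to 4892 TPM and 3933 to 5135 TPM, led by Cbln3 at a mean of 1272 TPM with an r of -0.06. In both lists, 0 of 7 genes had an r of at least 0.5. The median r was -0.27 for the Purkinje list and -0.29 for the granule list. The log2 sums of the 2 lists had an r of -0.30 and -0.34. Plvap, a marker of fenestrated capillaries at a mean of 38.9 TPM, had 0.41, and Plpp3, the most abundant gene of the list of 3 at a mean of 263.9 TPM, had -0.27. Red cell genes ranged from 128.1 to 20420 TPM in sum, led by Hbb-bs at a mean of 736.6 TPM with an r of 0.10. The highest of the 5, Alas2, had 0.11.

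Genes of neighbouring and distant tissue were also measured. Of the 11 genes on a brainstem list only Slc6a5 passed the filter, at a mean of 29.8 TPM with an r of 0.13. This single gene does not show that brainstem tissue was present. Neurod6, a forebrain marker, had a mean of 5.71 TPM and an r of 0.17. Apoa1 led the 8 liver genes at a mean of 1.19 TPM with an r of 0.10, and 5 of those 8 stayed under 1 TPM everywhere. The 5 pineal genes summed to 2.21 TPM at most.

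How tightly the members moved together was the second question. Without Ttr they form 28 pairs, and over all 62 libraries r between log2(TPM + 1) values ranged from 0.75 for Otx2 and Prlr to 0.98 for Folr1 and Cldn2, with a median of 0.92. Spearman's rho ranged from 0.57 to 0.90 with a median of 0.77. In permutation tests of all 36 pairs with 100000 resamples, each of the 28 had a two-sided p of 1e-05 for r and for rho, the smallest that the resamples can give, and the adjusted values were 1e-05 and 1.12e-05. Leaving out the 2 libraries farthest from the median of the first gene gave 0.69 to 0.97. After the group means were subtracted the range was 0.75 to 0.98, so the common movement lay within groups.

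Part of that range was carried by the near-absent libraries. In the other 56 libraries r ran from 0.50 (Otx2 and Prlr) to 0.95 (Clic6 and Slc4a5) with a median of 0.78, and rho from 0.41 to 0.87. The adjusted permutation p was 0.000219 at most for r and 0.00197 at most for rho. Leaving out the 2 farthest of these libraries gave 0.41 to 0.92. By week the median r was 0.98 at 2 weeks, 0.93 at 4 weeks, 0.92 at 6 weeks and 0.61 at 8 weeks, where no library was near absent and the lowest pair, again Otx2 and Prlr, had 0.17. The junction gene Cldn2 followed the rest most closely, with an r of 0.96 against the mean of the 8 other members, followed by Aqp1 at 0.96, Slc4a5 and Clic6 at 0.95, Kl at 0.95 and Folr1 at 0.94. Prlr had 0.87, Otx2 0.84 and Ttr the lowest, 0.76. For every member but Ttr, that mean includes Ttr and is not scaled. Ttr weighs most in it, with a standard deviation over all libraries of 2.67 against 1.28 for Folr1, the next widest. These values share the libraries and the scaling of each to the same total.

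Outside the list, the genes most like the members were nearly all choroid plexus genes too. Of 14390 other symbols tested, 81 had an r of at least 0.8 with the mean log2 level of the 9 members, and 24 had at least 0.9. Ttr weighs most in that mean too. The 15 most alike, leaving out clone names, ran from Mfrp at 0.98 to Col8a1 at 0.94, and 14 of the 15 stood on a list of other choroid plexus genes. That list was chosen with earlier results of these data known, so the overlap is a description and not independent support. Car12, a membrane carbonic anhydrase, had 0.97, Sostdc1, a secreted BMP and WNT antagonist, 0.97, Kcnj13, an apical potassium channel, 0.97, and Tmem72 0.97. Enpp2, which makes lysophosphatidic acid, had 0.97 and the coagulation factor gene F5 0.96. Next came Prr32, Krt18, Col8a2, Abca4, Msx1 and Calml4, all between 0.95 and 0.96. Drc7, a component of the dynein regulatory complex of cilia, was the single one of the 15 off the list, at 0.94.

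Sostdc1 showed the same extremes as Folr1, from 0.109 to 60.8 TPM, and Mfrp ran from 0.0883 to 27.1 TPM. Enpp2 did not come near 0, with 123.9 to 136.3 TPM in the near-absent libraries and up to 1384 TPM elsewhere. At the other end stood, among others, Ddx11 at -0.58, Acap3 at -0.56, Gtpbp2 at -0.55 and Arpp21 at -0.54. Such genes moved little in absolute terms, Acap3 between 52.1 and 72.4 TPM and Arpp21 between 17.1 and 22.9 TPM.

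The list of other choroid plexus genes held 42 names. The table contained 41 of them, and 40 passed the filter. In 32 of the 40 r was at least 0.8. The highest were Mfrp, Car12, 1500015O10Rik (0.97), Sostdc1, Kcnj13 and Tmem72. The lowest were Mdk at -0.03, Slc29a4 at -0.02, Vat1l at 0.41 and Slc12a2, a chloride cotransporter, at 0.41. In the near-absent libraries Mdk stood at 57.8 to 67.9 TPM, against 49.6 to 73.8 TPM in the other 56. Slc12a2 stood at 82.1 to 92.8 TPM there against 79.8 to 105.6 TPM, and Vat1l at 60.5 to 86.2 TPM against 65.7 to 98.2 TPM.

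Ttr did not keep step with the other members, and in its relation to them 4 libraries stood far apart. The measure used was the TPM of Ttr over the geometric mean TPM of the 8 other members. Both are per length, so the quotient compares levels. Among the 56 libraries not near absent, sorted by this quotient, the widest gap lay between 10.7 and 212, and 4 libraries stood below it. A gap of 0.21 on the log2 scale, from 279 to 322, was the widest among the 52 above, which it splits into 14 libraries from 212 to 279 and 38 from 322 to 566. The split was made on these values and is a description. A wider gap of 0.34, from 8.49 to 10.7, lay within the 4 libraries and was not used. The 14 also hold CAC at 2 weeks replicate 5, with a geometric mean of 2.26 TPM and Otx2 at 11.9 TPM. Near-constant Otx2 raises the divisor in such low libraries. Over Folr1 alone, Ttr reached 316 in the 14, within the 278 to 420 of the 38.

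The 4 libraries below the gap had the other members in full. In CAC at 6 weeks replicate 5, Ttr stood at 139.5 TPM beside Folr1 at 39.5 TPM and Cldn2 at 12.2 TPM, the highest values of both genes in the series. In CAC at 4 weeks replicate 4, Ttr was 160.8 TPM with Folr1 at 35.8 TPM and Otx2 at 21.7 TPM, the highest Otx2. In NCAC at 8 weeks replicate 5, Ttr was 121.7 TPM with Kl at 25.5 TPM and Prlr at 4.93 TPM, again the highest of each. In NCAC at 6 weeks replicate 3, Ttr was 85.0 TPM with Folr1 at 22.4 TPM. The other 52 libraries had Ttr at 490.2 TPM or more, so these 4 lay far below them in Ttr and within or above their range in Folr1. All 4 came from mice given melanoma cells, 2 from CAC and 2 from NCAC, at 4, 6 or 8 weeks. Whether this differs from the share in mock was not tested.

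Over each single partner gene the 4 libraries also lay below the 52. Each partner is part of the geometric mean that set them apart, so this is not independent support. Ttr over Folr1 was 3.54 to 4.49 in the 4 libraries and 103 to 420.0 in the 52. Over Clic6 it was 3.10 to 3.52, against 68.2 to 92.9 in the 14 and 113 to 197 in the 38, with no overlap between these 3 sets. Over Slc4a5 the sets did not overlap either, at 7.84 to 9.66, 166 to 262 and 298 to 507. Over Cldn2 they were 11.4 to 14.4, 270.1 to 448 and 453 to 747. Over Folr1, Kl, Aqp1, Otx2 and Prlr the 14 and the 38 overlapped.

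Within the 52 libraries Ttr had an r of 0.865 and a rho of 0.69 against the log2 geometric mean. These 52 were set apart by the quotient of the same 2 quantities. A high correlation was therefore largely built in, and no p-value is given for it. Without the 2 farthest libraries r was 0.75. No value over all libraries is given, because they fall into clusters. The 14 libraries of the middle set came from all 3 treatments, 5 of CAC, 4 of NCAC and 5 of mock, and from every week. Among them were mock at 8 weeks replicates 1 and 3, at 2840 and 2686 TPM of Ttr, whereas mock replicates 2 and 4 of that week had 5191 and 5456 TPM and all 4 had Folr1 between 15.1 and 21.8 TPM.

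**Figure D2:**
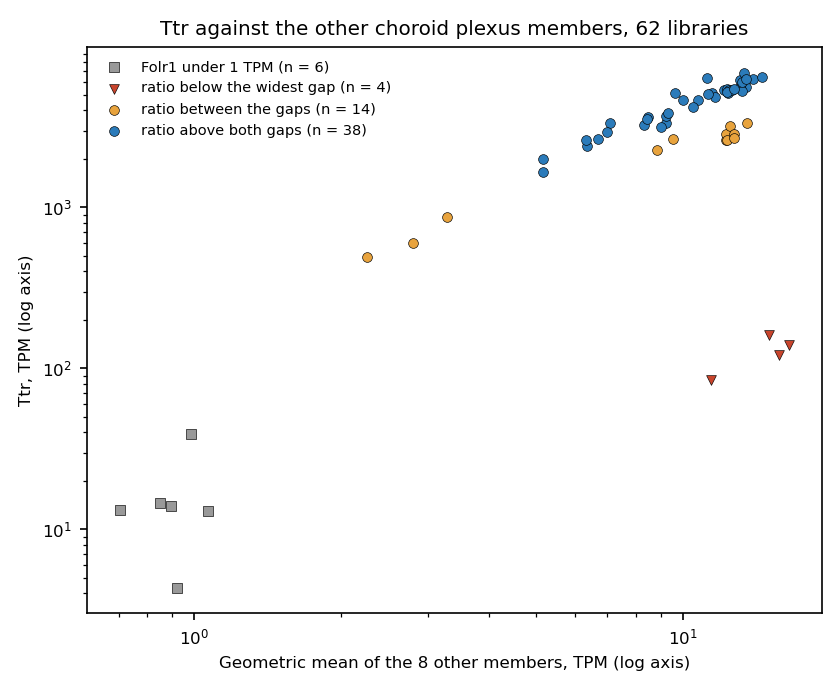
Ttr against the geometric mean of the 8 other members in all 62 libraries, both in TPM on log axes; colours mark the 6 near-absent libraries, the 4 below the widest gap in the quotient, and the 14 and 38 above it. The 4 libraries lie at 85.0 to 160.8 TPM of Ttr with a geometric mean of 11.4 to 16.4 TPM, far below the other libraries with a geometric mean in that range.

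The third question was whether any group differed. In a fit of all 12 groups with limma on log2(TPM + 1), with Benjamini-Hochberg adjustment over the 14399 symbols and a threshold of 0.05, 0 of the 9 members passed in each of 17 comparisons. The share of all symbols passing was 20.8% for CAC against mock at 8 weeks, 1.72% at 6 weeks, 0.00694% at 4 weeks and 0% at 2 weeks. For CAC against NCAC it was 11.8% at 8 weeks, 9.45% at 6 weeks, 0.00694% at 4 weeks and 0% at 2 weeks. For NCAC against mock it was 0.0139% at 2 weeks and 0% in the other weeks. Over all weeks it was 23% for CAC against mock, 20.9% for CAC against NCAC and 0% for NCAC against mock. Between mock at 8 and at 2 weeks it was 0%, and for the change of CAC minus mock between those weeks 1.55%. Of the 153 tests of a member, 13 had an unadjusted p under 0.05, and 6 of these were in NCAC against mock at 4 weeks and 5 in NCAC against mock at 2 weeks. The groups with near-absent libraries enter both. At 2 weeks, members in NCAC were lower by a median of 0.88 on the log2 scale, the 3 near-absent libraries included, beside a median over all tested symbols close to 0. At 4 weeks the members were higher than in mock by a median of 0.99 in NCAC and 0.96 in CAC, with 1 of the 5 mock libraries of that week near absent. Without the near-absent libraries, NCAC minus mock ran from 0.12 (Otx2) to 0.80 (Kl) at 4 weeks. At 2 weeks, with 2 NCAC libraries left, it ran from 0.18 (Prlr) to 1.17 (Ttr). No member passed in either.

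Ttr was also compared within each week by an exact permutation test of the mean log2(TPM + 1), two-sided, over the 12 pairs of treatments. At 8 weeks its group means were 11.95 in CAC (n = 7), 11.31 in NCAC (n = 5) and 11.85 in mock (n = 5). CAC minus mock was 0.10 (exact p = 0.71) and CAC minus NCAC was 0.64 (exact p = 0.731). The largest difference was in NCAC minus mock at 2 weeks, -4.15 (exact p = 0.159). All 12 adjusted p-values were 0.96, where 5 against 5 could reach a raw p of 0.00794.

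Week was the one factor that reached the threshold, and the calls changed with the libraries included. In F tests over weeks, 4 of the 9 members passed, Clic6 (adjusted p = 0.0168), Slc4a5 (0.0299), Prlr (0.0344) and Folr1 (0.0488), where 6.37% of all symbols passed. Over all 12 groups 3 passed, Clic6, Slc4a5 and Prlr, against 20.7% of all symbols. For treatment 0 passed against 22.4%, and for treatment by week 0 against 0.188%. Clic6 had a mean log2(TPM + 1) of 3.88 at 2 weeks and 5.14 at 8 weeks, and Folr1 of 2.68 and 4.21. Of the 6 near-absent libraries, 4 were from 2 weeks and 0 from 8 weeks. Without these 6 libraries, 0 of the 9 passed the F tests over weeks or over all groups, and Prlr passed that over treatment. No share of all symbols is at hand for these F tests, so the counts cannot be set against it. The 6 were picked for low Folr1, a member itself, so leaving them out narrows the difference between weeks by construction. In the libraries that remained, Folr1 had a mean of 3.50 at 2 weeks and 4.21 at 8 weeks, and Clic6 of 4.46 and 5.14.

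Since the members rose and fell together from library to library, a second fit was made that held this common level constant. It added 1 covariate, the mean log2(TPM + 1) of the 40 other choroid plexus genes tested, none of them a member. It was chosen after the data were seen. With it the standard error of the Kl difference at 8 weeks fell from 0.57 to 0.12, and for CAC against mock 4 of 9 members passed, where 21.5% of all symbols passed. Klotho, prolactin receptor and the water channel were lower in CAC and Clic6 was higher, each relative to the other choroid plexus genes of the same library.

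Kl held 11.4, 5.37, 18.4, 8.95, 10.8, 9.82 and 7.05 TPM in the 7 CAC libraries at 8 weeks. In mock it was 17.1, 16.3, 16.3, 13.98 and 11.9 TPM, and in NCAC 17.3, 19.9, 14.98, 10.6 and 25.5 TPM. All CAC values except that of replicate 3 lay below every mock value and below every NCAC value but that of replicate 4. With the covariate, CAC minus mock was -0.62 ± 0.12 on the log2 scale (SE, limma adjusted p = 0.000167). Against NCAC the difference was -0.66 ± 0.12 (adjusted p = 0.000145). NCAC minus mock was 0.05 ± 0.13 (adjusted p = 0.96). Without the covariate CAC minus mock was -0.58 ± 0.57 (adjusted p = 0.504). With it, Kl passed both comparisons in all 23 alternatives tried, with differences from mock of -0.70 to -0.42.

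Expressed over the geometric mean of the 7 members other than Ttr and Kl, Kl was 0.902, 0.742, 1.48, 0.774, 1.16, 0.708 and 0.772 in CAC at 8 weeks. The mock and NCAC libraries of that week ran from 1.12 to 1.74, so 5 of the 7 CAC libraries lay below all 10 others and 2 within their range. At 6 weeks the 5 CAC values were 0.776, 0.883, 1.09, 0.945 and 1.42, of which 4 lay below the 9 other libraries (1.30 to 1.57). The exception was replicate 5, the library with little Ttr. There the difference in Kl with the covariate was -0.42 ± 0.13 against NCAC (adjusted p = 0.0278, where 9.76% of all symbols passed) and -0.33 ± 0.13 against mock (adjusted p = 0.172, where 1.57% passed). Without the 4 libraries low in Ttr, the first of these no longer passed. At 2 and 4 weeks Kl did not pass against either group.

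Over all 4 weeks and with the covariate, Kl was lower in CAC. Its difference was -0.33 ± 0.06 from mock (adjusted p = 0.000174, 23.1% of all symbols passing) and -0.30 ± 0.06 from NCAC (adjusted p = 0.000482, 21.4% passing). Between 2 and 8 weeks the difference of Kl from mock changed by -0.44 ± 0.17 (adjusted p = 0.184), which did not pass, where 1.28% of all symbols did. Without the near-absent libraries and with no covariate, Kl passed between CAC and NCAC over all weeks, at -0.63 ± 0.21 (adjusted p = 0.0374). Prlr passed at -0.43 ± 0.13 (adjusted p = 0.0259), where 12.4% of all symbols passed. Neither gene passed against mock in that fit, where 21% of all symbols did. CAC minus mock was -0.20 ± 0.20 for Kl (limma adjusted p = 0.499) and -0.17 ± 0.13 for Prlr (0.349). NCAC minus mock was 0.43 ± 0.21 for Kl and 0.26 ± 0.14 for Prlr, and these did not pass. That fit keeps 2 of the 5 NCAC libraries of 2 weeks, left in by their Folr1 level. At 2 weeks, Kl in CAC minus NCAC was 0.93 with all libraries and -0.63 in that fit. With all libraries and no covariate, Kl over all weeks was -0.24 (limma adjusted p = 0.609).

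Prlr stood at 3.11, 1.41, 2.23, 2.15, 0.831, 2.48 and 1.17 TPM in CAC at 8 weeks, at 2.93, 4.23, 2.38, 3.07 and 2.19 TPM in mock, and at 2.67, 3.58, 3.10, 2.17 and 4.93 TPM in NCAC. The groups overlapped. With the covariate, CAC minus mock was -0.49 ± 0.13 (adjusted p = 0.00616) and CAC minus NCAC -0.53 ± 0.13 (adjusted p = 0.00484, 12.5% of all symbols passing). Relative to the 7 other members, 4 of 7 CAC libraries lay below all 10 others. Over all weeks it was lower too, by a difference from mock of -0.22 ± 0.07 (adjusted p = 0.0187, and 0.069 with sample weights) and from NCAC of -0.31 ± 0.07 (adjusted p = 0.00133). At 8 weeks both calls were lost when the compared groups were fitted alone (adjusted p = 0.0714 against mock).

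Clic6 moved the other way. It stood at 47.0, 23.7, 37.6, 45.6, 36.9, 50.9 and 32.3 TPM in CAC at 8 weeks, against 34.1, 35.3, 33.9, 33.6 and 24.3 TPM in mock and 31.1, 38.4, 31.6, 22.3 and 38.0 TPM in NCAC, with wide overlap. Relative to the 7 other members, all 7 CAC libraries (3.35 to 4.97) lay above all 10 others (2.65 to 3.34), the narrowest margin being between CAC replicate 3 and mock replicate 2. Kl is among the genes in that divisor. With the covariate, CAC minus mock was 0.22 ± 0.08 (adjusted p = 0.0367) and CAC minus NCAC 0.33 ± 0.08 (adjusted p = 0.00301). The difference from mock was lost in 10 of 23 alternatives, with adjusted p up to 0.145, and that from NCAC in none.

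**Figure D3:**
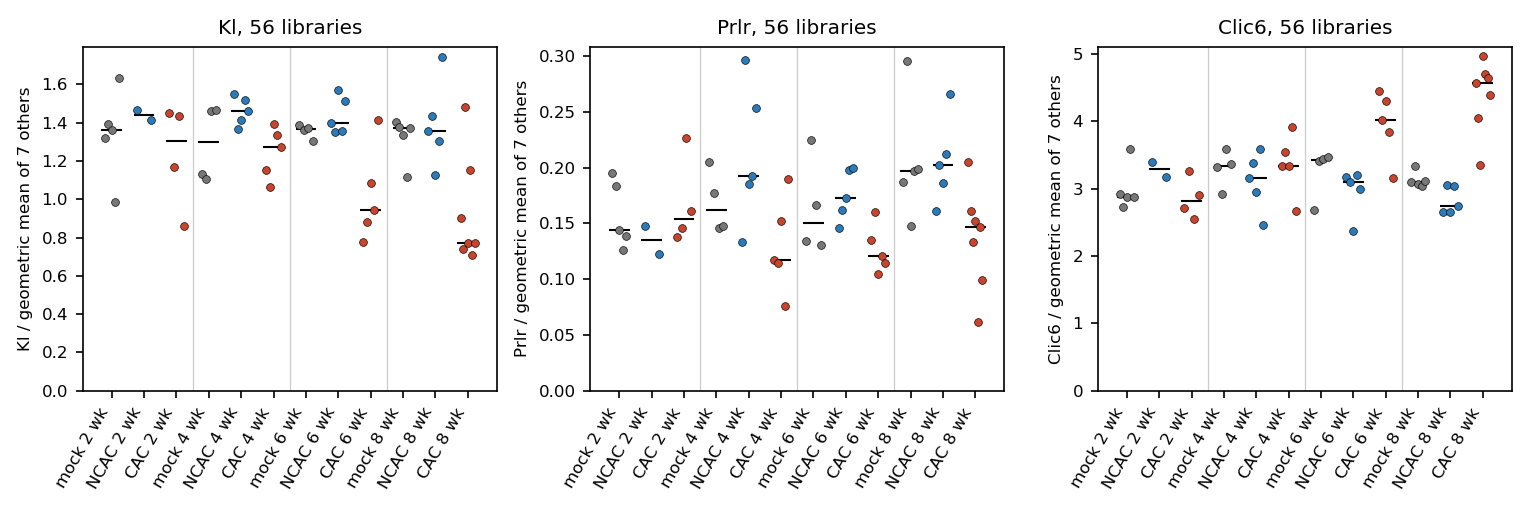
TPM of Kl, Prlr and Clic6 over the geometric mean TPM of the 7 other members without Ttr, in the 56 libraries not near absent (points), by treatment and week, with the group median as a line. In CAC at 8 weeks, 5 of 7 libraries lie below all NCAC and mock libraries in Kl, 4 of 7 in Prlr, and 7 of 7 lie above them in Clic6.

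Aqp1 held 6.76, 6.22, 13.1, 8.72, 8.12, 9.17 and 7.50 TPM in CAC at 8 weeks and 11.1, 11.1, 14.7, 13.6 and 6.95 TPM in mock. With the covariate the difference was -0.42 ± 0.16 (adjusted p = 0.0465), and it was lost in 14 of 23 alternatives, with adjusted p up to 0.219. Against NCAC it was -0.49 ± 0.16 (adjusted p = 0.0287), lost in 11 of 23. Slc4a5 did not pass at 8 weeks (0.17 ± 0.08 against mock, adjusted p = 0.0971) and passed over all weeks against mock (0.12 ± 0.04, adjusted p = 0.0296), though not with no filter on low values (adjusted p = 0.0533).

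Folr1, Otx2 and Cldn2 did not pass at 8 weeks. For CAC minus mock with the covariate, Folr1 was 0.00 ± 0.12, Otx2 0.07 ± 0.07 and Cldn2 -0.11 ± 0.07. Relative to the 7 other members, a divisor that holds Kl and Prlr, 4 of the 7 CAC libraries lay above all 10 others in Folr1 (1.31 to 2.10 against 1.27 to 1.95) and 5 of 7 in Slc4a5 (0.98 to 1.51 against 0.777 to 1.21). On the same quotient 3 of 7 lay above all others in Cldn2 and 2 of 7 in Otx2, and 2 of 7 lay below them in Aqp1. Ttr had an SE of 1.07 on the log2 scale and its difference could not be resolved. For NCAC against mock 0 of 9 members passed with limma at 8 weeks or over all weeks, and 0 had an unadjusted p under 0.05 in either, where 0% of all symbols passed.

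**Figure D4:**
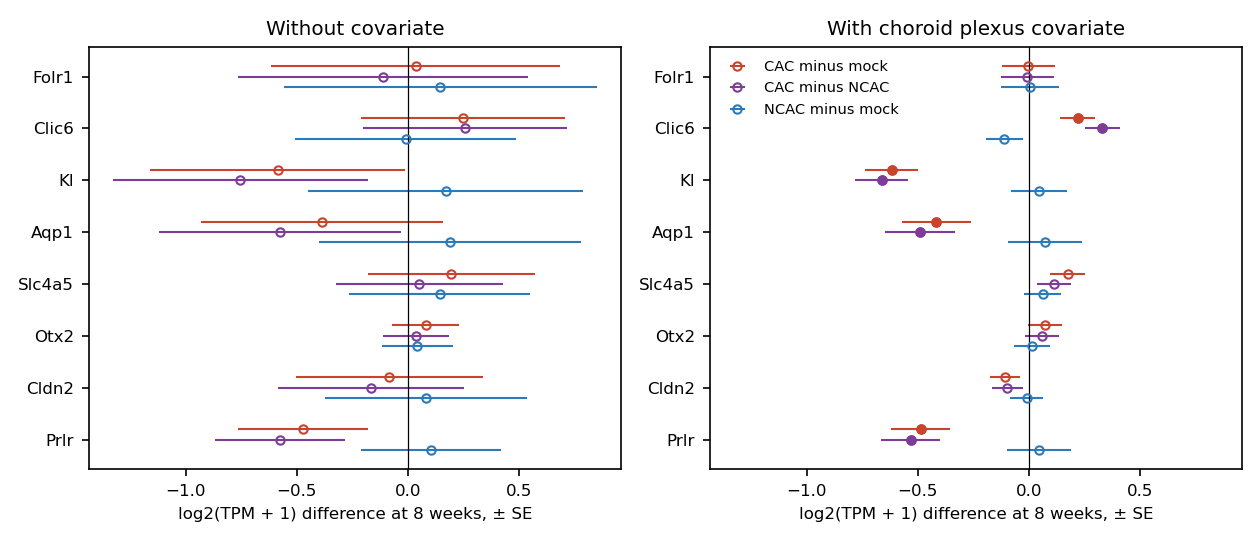
Differences in log2(TPM + 1) at 8 weeks for the 8 members without Ttr (points, with SE as bars) from the limma fit without (left) and with (right) the choroid plexus covariate; filled points passed the threshold. Without the covariate none is filled, and with it Kl, Prlr and Aqp1 lie left of 0 and Clic6 right of 0 in both comparisons of CAC.

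The 40 other choroid plexus genes were fitted in the same way, with the mean of the 8 members without Ttr as the covariate. For CAC against mock at 8 weeks 8 of 40 were higher and 1 lower, where 21.6% of all symbols passed, a share close to that of the list. Among the genes of that list named above by their correlation with the members, Car12 was higher by 0.29 ± 0.09 (adjusted p = 0.0149), 1500015O10Rik by 0.30 ± 0.10 (adjusted p = 0.0191) and Slc12a2, one of the least alike, by 0.12 ± 0.04 (adjusted p = 0.0318). Mfrp, at 0.17 ± 0.09, and Sostdc1, at -0.31 ± 0.18, did not pass. That covariate holds Kl, Prlr and Aqp1, which were lower in CAC in the fit above, and Clic6, which was higher. A rise relative to it and a fall of its own genes cannot be told apart. The same limit holds for the members against the covariate of the 40 genes. With the mean of the 8 members as the covariate, which contains the member tested, CAC minus mock at 8 weeks was -0.42 for Kl (adjusted p = 0.00111), -0.39 for Prlr (0.0192), 0.38 for Clic6 (0.000623) and 0.30 for Slc4a5 (0.0032), all past the threshold. Aqp1, at -0.23 (0.219), was not.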

How the data were processed

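Cerebellum RNA of 62 libraries was analysed from 1 table. The authors deposited TPM values per gene symbol. Per the submitters' processing notes the build was mm10. RNA was isolated with Trizol and sequenced from stranded mRNA libraries, per the labels' protocols. The sources used here give neither aligner, quantification tool nor annotation. TPM scales every library to a total of 1000000, so depth is unknown, no counting interval is given, and a rise in an abundant gene lowers all others. Mitochondrially encoded genes took 17.1% to 22.2% of TPM.

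Groups were taken from the sample descriptions. The treatment field, which names cachectic cells for every sample, was not used. Levels were analysed as log2(TPM + 1), which understates the change of low genes, for the 14399 symbols whose mean TPM reached 1. All 12 groups were fitted with limma 3.58.1 in R 4.3.3 (eBayes with a trend, 50 residual degrees of freedom, 49 with the covariate), two-sided, with Benjamini-Hochberg adjustment over all tested symbols in each comparison. The fit without the covariate was tested before use on simulated data with known changes. That simulation drew each gene independently of the others, and the fit with the covariate was not simulated. Permutation tests used scipy and numpy in Python, with 100000 resamples for correlations and full enumeration for Ttr. No 2 libraries were identical. Same-numbered replicates met the rule for pairing, every pair correlating over 0.1, in 0 of 12 comparisons. This is a strict rule. The mean same-number correlation ran from -0.104 in CAC against mock to 0.157 in CAC against NCAC, both at 2 weeks. In the latter, different numbers had a mean of -0.039.

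The members, the gene lists and the tests were chosen with earlier results of these data known. Named genes were all 9 members, the 15 other symbols most and the 5 least correlated with the members' mean, from the other choroid plexus list up to 6 highest and 4 lowest, and from each other list the gene with the highest mean and that with the highest correlation. Clone and pseudogene names were left out of the 15 and the 5, and 1 gene that the rule takes is not reported here. The covariate, the cuts for near-absent libraries and for the quotient of Ttr, and the fits without those libraries were added after seeing the data. Alternatives were the fit of the compared groups alone, leaving out replicates, a replicate block, sample weights, quantile normalization or median-of-ratios scaling, a mean TPM of at least 5 or no minimum, and a pseudocount of 0.1.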

Additional observations from a re-analysis of the deposited data

Results flagged for a closer look

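Each of the 9 members, and the quotient of Ttr over the geometric mean of the 8 others, was tested in each of the 12 groups for a library far from the rest, on the log2 scale with Dixon's test. Of 120 tests, 18 named a library, where chance names about 1 in 20, and they concerned 10 libraries. The members share libraries, so these are not independent.

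Ttr stood apart at 139 TPM in CAC at 6 weeks replicate 5 (others 2420 to 5120), at 85.0 TPM in NCAC at 6 weeks replicate 3 (others 2630 to 5340), at 39.2 TPM in mock at 6 weeks replicate 4 (others 2660 to 6260) and at 122 TPM in NCAC at 8 weeks replicate 5 (others 3550 to 6430). Its quotient stood apart in the same 4 libraries, at 8.49, 7.47, 39.9 and 7.75, and in 3 more. Those were CAC at 2 weeks replicate 1 at 12.2 (others 217 to 445), CAC at 4 weeks replicate 4 at 10.7 (others 249.6 to 465.98) and mock at 4 weeks replicate 3 at 15.5 (others 265 to 442). Mock at 6 weeks replicate 4, CAC at 2 weeks replicate 1 and mock at 4 weeks replicate 3 are near-absent libraries. In these the floor of Otx2, Clic6 and Slc4a5 holds up the divisor, so a low quotient is partly built in.

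Kl stood high at 22.3 TPM in CAC at 6 weeks replicate 5, where the other libraries had 5.7 to 7.71 TPM, and low at 12.2 TPM in NCAC at 6 weeks replicate 4 (others 16.2 to 16.9). In mock at 8 weeks replicate 5, Clic6 was low at 24.3 TPM (others 33.6 to 35.3) and Slc4a5 at 8.42 TPM (others 11.7 to 12.5). Otx2 was low at 14.1 TPM in NCAC at 6 weeks replicate 4 (others 17.0 to 18.1) and at 12.9 TPM in NCAC at 8 weeks replicate 4 (others 16.8 to 18.2). In that last library Cldn2 was low as well, at 5.63 TPM (others 8.98 to 9.95).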

How the results depend on the processing

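Without a covariate, 0 members passed in each of the 17 comparisons under each alternative, except 2 (Kl and Prlr) for CAC against NCAC over all weeks without the 6 near-absent libraries. No replicate block changed a call there. In the F tests over all groups, the 3 members became 1 with no filter, 1 with the replicate block, 5 with a pseudocount of 0.1, 1 without the 4 libraries lowest in Ttr and 0 without the near-absent ones, and 0 to 7 when 1 replicate number was left out. Over weeks the 4 became 1 with no filter, 2 and 0 without those libraries, and 0 to 8. Over treatment 1 passed without the near-absent libraries. For these alternatives of the F tests no share of all symbols is at hand to set beside the counts.

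With the covariate, the 4 members of CAC against mock at 8 weeks became 1 with the compared groups alone, 2 with a mean TPM of at least 5 (which drops Prlr), with no filter or with the replicate block, and 2 to 5 when 1 library was left out, with 2 without CAC replicate 1, 4 or 6 or mock replicate 3. Against NCAC the 4 became 2 with the groups alone and 3 to 4 without 1 library. At 6 weeks against NCAC the 1 became 0 with the groups alone or without the 4 libraries low in Ttr, and 2 with the 8-member covariate, a mean TPM of at least 5, either scaling or sample weights, and ranged from 0 to 2 without 1 library (CAC replicates 1 and 5, NCAC replicates 3 and 5). Over all weeks against mock the 3 became 2 with a mean TPM of at least 5, no filter or sample weights. Over all weeks against NCAC the 2 became 4 with the 8-member covariate. The change from 2 to 8 weeks rose from 0 to 1 with that covariate or with sample weights. The causes were not tested.

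The Ttr exact test passed in 0 of 148 alternatives (lowest adjusted p 0.667), with the sign of an uncalled difference opposite in 24. The median r of 0.92 was 0.98 in week 2, 0.61 in week 8, 0.77 as Spearman's rho and 0.78 without the near-absent libraries, and 0.91 to 0.93 without 1 replicate number. The standard deviation of Prlr was 0.99 with a pseudocount of 0.1. With a mean TPM of at least 5, 32 in place of 81 symbols had an r of at least 0.8, since fewer were tested. Depth is unknown, and values of Prlr, Folr1 and Kl under 1 TPM rest on few reads of unknown number.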
